A study of Mus musculus with 16 samples.

Results

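The proteasome subunit genes of the mouse were followed through the growth of the oocyte. They were all genes of the deposited RNA table whose symbol begins with Psma, Psmb, Psmc, Psmd, Psme, Psmf or Psmg and goes on with a number, with at most 1 letter after it. This rule found 48 of the 25965 genes of the table, and it used no measured value. The proteasome is the protease that breaks down proteins marked with ubiquitin. Its 20S core is a stack of rings of alpha and beta subunits with the proteolytic sites inside, and its 19S cap recognises ubiquitin, unfolds the substrate with a ring of ATPases and feeds it into the core. The growing oocyte makes and stores proteins and RNA that the early embryo will use.

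The series holds 16 samples of wild-type C57BL/6 oocytes (C57BL/6Babr in the methods), taken from pre-pubertal mice of rising age and sorted by diameter, with the oocytes of each library pooled and with no treatment. RNA-seq was done on 2 libraries (A and B) of each of 4 classes, which were 10–30 µm, 40–45 µm, 50–55 µm and, as the largest, 60–65 µm. Fully grown oocytes with an intact germinal vesicle (GV) have 1 column of values and so no error, and whether it is 1 library or a mean of several is not stated. Methylation was measured by reduced representation bisulphite sequencing (RRBS) in 2 libraries of each class except the smallest, and by post-bisulphite adaptor tagging (PBAT) in 1 library of the 60–65 µm class. RRBS samples CpG-rich sequence and PBAT the whole genome. Nothing says that A and B came from separate animals, so that p-values measure the spread between these libraries, which may be technical.

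RNA values are reads per kilobase of exon, scaled to library size (RPKM). The table gave 23726960 to 54869959 reads in genes per column after whole reads were recovered from its steps. Oocyte markers were abundant, with a summed level of 2496 to 3763 RPKM for 10 genes such as Zp2 and Gdf9. The summed level of 9 granulosa cell markers was 2.05 to 9.66 RPKM, rising with size and led by Nr5a2, that of 7 stroma and theca markers was 0.475 to 3.93 RPKM, and that of 8 immune markers was at most 0.345 RPKM. The sum of 2 haemoglobin genes was at most 0.156 RPKM. Cd3e was at 0 in all 9 columns, and Cyp17a1 and Emcn were at 0 in both 10–30 µm libraries. Since RPKM is a share of a library, a fall in RPKM cannot be told apart from a rise of other RNA in the cell, and in pooled oocytes fewer expressing cells cannot be told apart from less RNA per cell.

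Of the 48 genes, 42 entered the test, which asked for 0.5 RPKM in 2 of 8 growing-oocyte libraries. The other 6 were Psma8, Psmb8, Psmb9, Psmb10, Psmb11 and Psme1. The 14 standard core subunits (Psma1 to Psma7 and Psmb1 to Psmb7) and the 17 cap subunits (Psmc1 to Psmc6 and 11 Psmd genes) all passed. Means over the 8 libraries ran from 7.04 RPKM for Psma3 to 51.5 RPKM for Psma2 in the core, and from 1.61 RPKM for Psmd11 to 29.1 RPKM for Psmd8 in the cap. Levels of different genes should be set against each other with care, because the exon length implied by the table was over 1.5 times the length of the GENCODE model for 19 of the 48 genes and under 1/1.5 of it for 3, Psma2, Psmb1 and Psmd8.

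**Figure D1:**
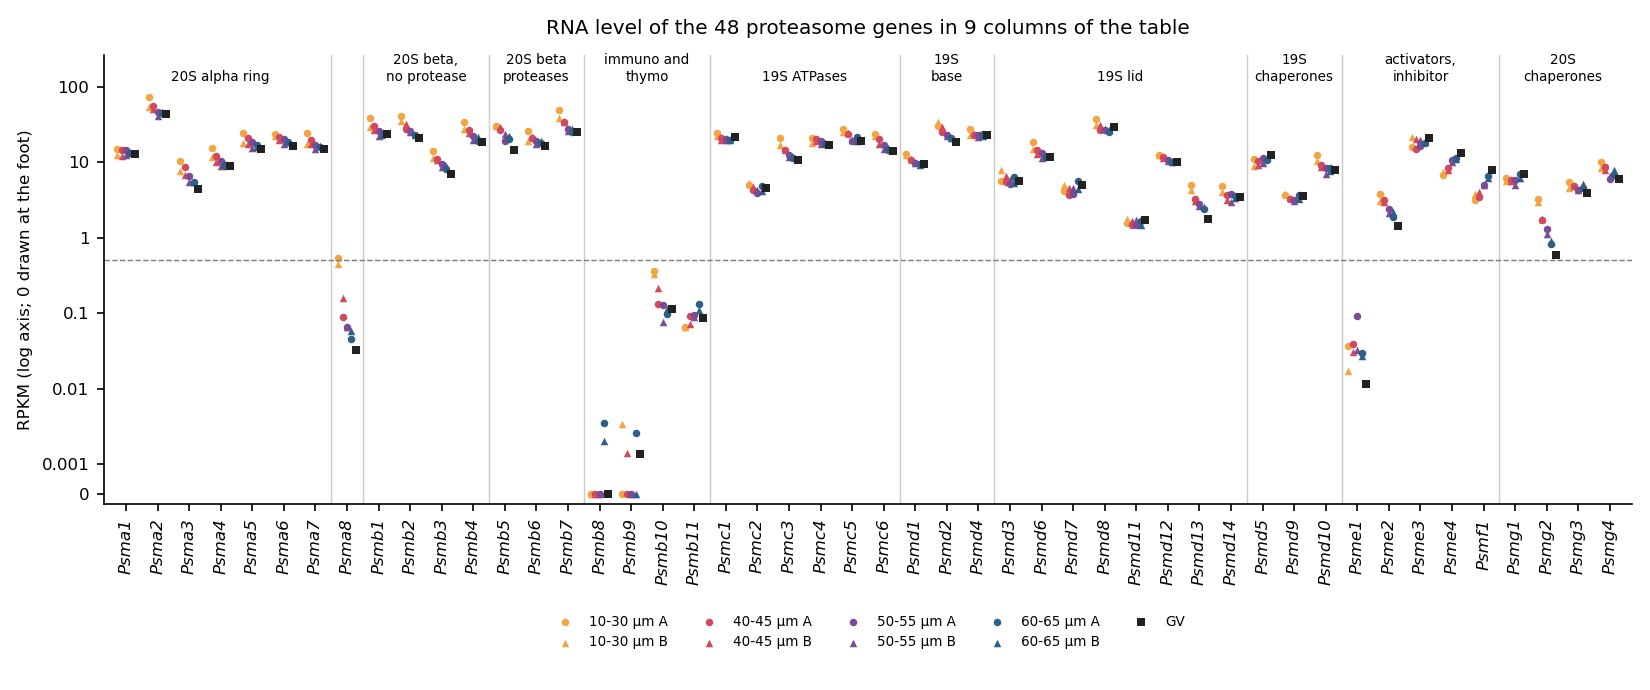
RPKM (log axis, with 0 drawn at the foot) of the 48 proteasome genes, grouped by their place in the particle, in the 8 growing-oocyte libraries (A circles, B triangles) and in the GV column (squares). The dashed line marks the filter of 0.5 RPKM, and 6 genes sit below it in at least 7 of these 8 libraries.

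The summed level of the 14 core subunits was 419.6 RPKM in A and 334.7 RPKM in B at 10–30 µm, 330.3 and 311.6 RPKM at 40–45 µm, 283.6 and 257.9 RPKM at 50–55 µm, and 260.4 and 271.4 RPKM at 60–65 µm. In the GV column it was 242.0 RPKM. The A library at 10–30 µm stood far above its partner, and both 60–65 µm libraries lay below both 10–30 µm libraries. The 17 cap subunits summed to 282.4 and 261.5 RPKM at 10–30 µm, 233.7 and 237.8 RPKM at 40–45 µm, 214.6 and 208.2 RPKM at 50–55 µm, and 210.5 and 206.6 RPKM at 60–65 µm, with 206.6 RPKM in GV oocytes. Core divided by cap was 1.49 and 1.28 in the youngest class and 1.24 and 1.31 at 60–65 µm, with overlapping libraries.

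**Figure D2:**
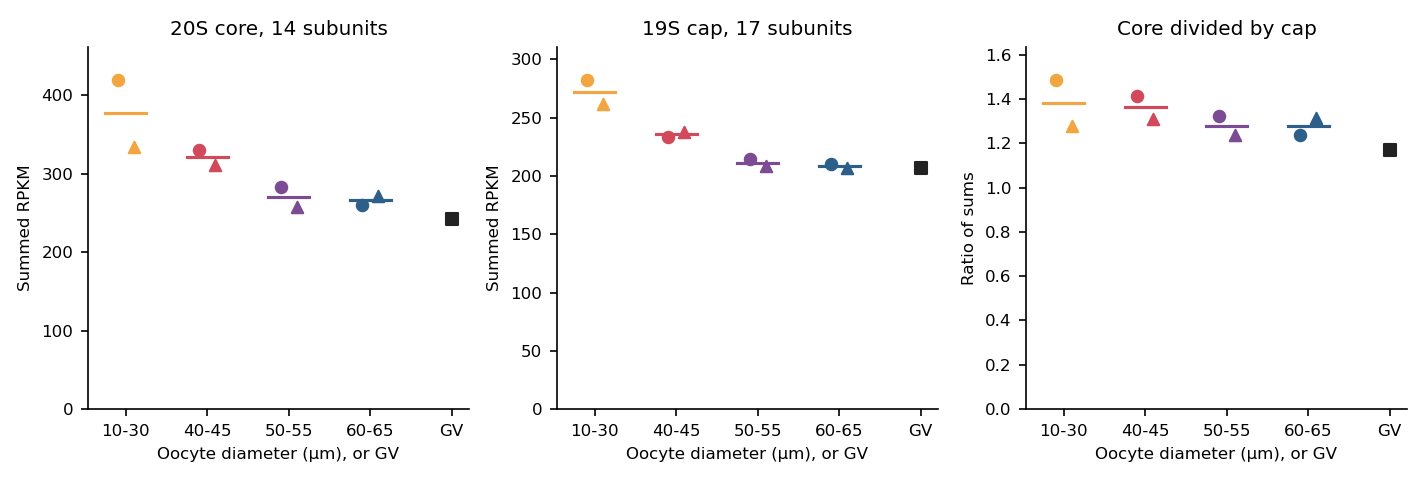
Summed RPKM of the 14 core and of the 17 cap subunits, and the ratio of these sums, by oocyte diameter and in the GV column, with circles for A, triangles for B, a square for GV and a line for the mean of each class. Both sums were lower in both 60–65 µm libraries than in both 10–30 µm libraries, whereas the ratio overlapped between these classes.

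Over the whole of growth, from 10–30 to 60–65 µm, 20 of the 42 tested genes fell and 2 rose in limma at an adjusted p under 0.05. Over all 10518 genes tested, 31.5% fell and 31.8% rose. The median log2 fold change was −0.34 for the proteasome genes, −0.50 for the core, −0.34 for the cap and 0.0046 for all genes. Of the core, 8 of 14 fell and all 14 estimates lay below 0. Of the cap, 9 of 17 fell and 16 estimates lay below 0. Both 60–65 µm libraries lay below both 10–30 µm libraries for 27 of the 42 genes and above them for 2, beside 41.2% and 41.0% of all genes. The number of genes that fell depended on single libraries. It was 13 without the A library at 10–30 µm, 10 without A at 60–65 µm and 12 without B at 60–65 µm, and it was 29 without B at 10–30 µm. The median was −0.23 without A and −0.54 without B at 10–30 µm. Of the 20, 9 were called in each of the 8 fits that left out 1 library, namely Psmg2, Psmd13, Psmb2, Psmb7, Psme2, Psmc3, Psmc6, Psmd2 and Psmd1.

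Within the size classes the A library was above the B library for 35 of the 42 genes at 10–30 µm, 32 at 40–45 µm, 31 at 50–55 µm and 17 at 60–65 µm. Over all genes tested the shares were 55.5, 52.9, 50.6 and 48.5%. The median difference between A and B at 10–30 µm was 0.32 on the log2 scale for the proteasome genes and 0.039 for all genes tested. Among markers of other cells, 5 of the 7 stroma and theca genes were lower in both 60–65 µm libraries than in both 10–30 µm libraries, with a summed level of 3.93 and 2.82 RPKM falling to 1.099 and 1.017 RPKM. Their part in the result was not tested. The granulosa list moved the other way, with 8 of 9 genes above and a sum of 2.05 and 2.47 RPKM rising to 7.76 and 7.14 RPKM, and so did 3 of 5 endothelial genes, from 1.06 and 1.17 RPKM to 5.93 and 5.34 RPKM, led by Pecam1. Of the 10 oocyte markers, 6 were lower and 3 higher in both 60–65 µm libraries, with a sum of 3500 and 3531 RPKM at 10–30 µm and of 2697 and 2874 RPKM at 60–65 µm. In both 60–65 µm libraries 41.2% of all genes tested were lower and 41.0% higher, on the scaled values. The part of these lists was not tested either.

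**Figure D3:**
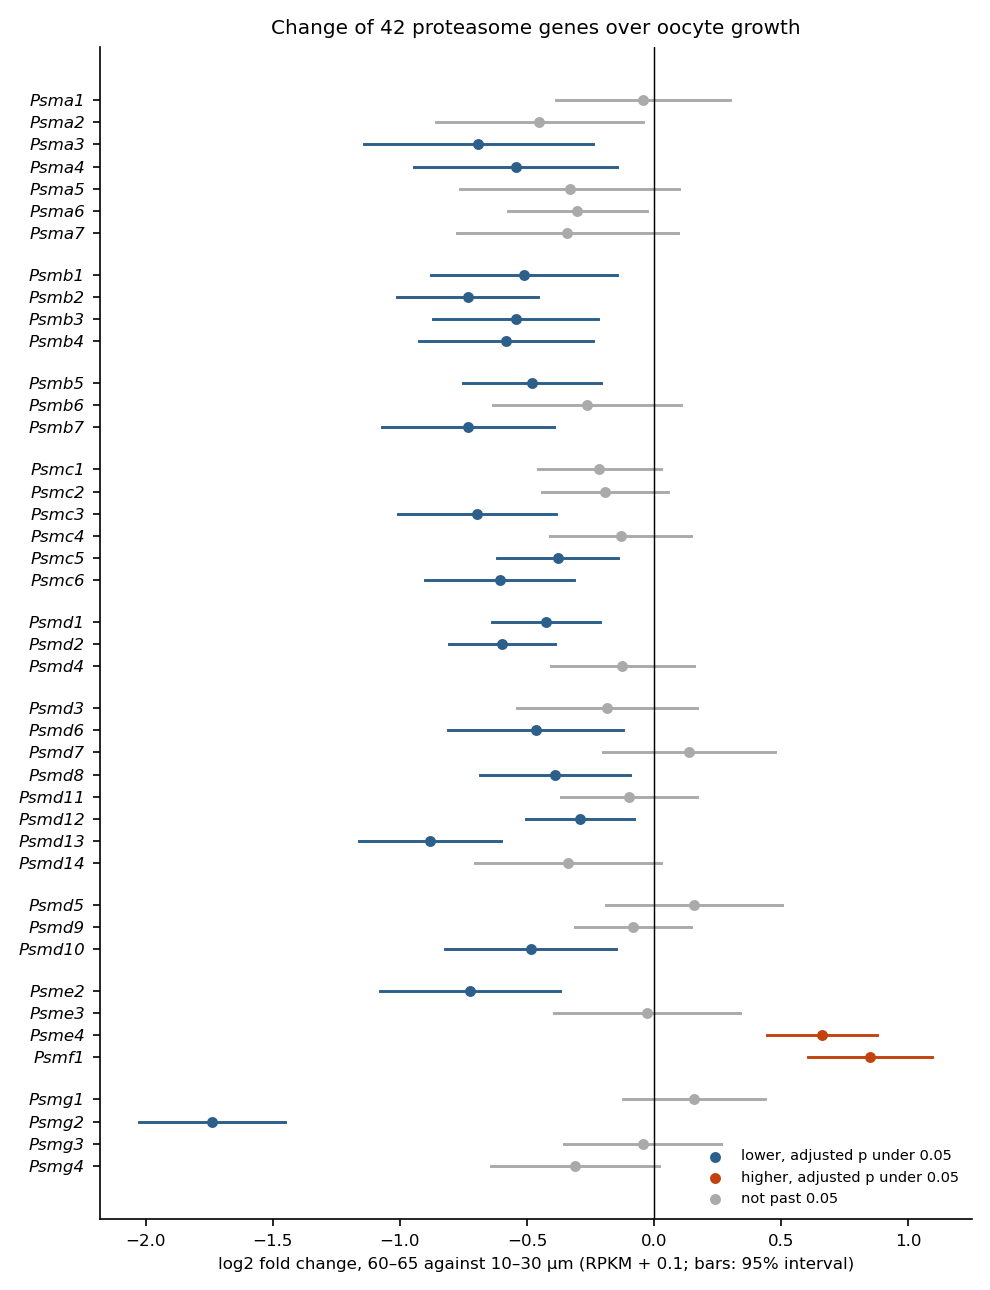
log2 fold change of RPKM + 0.1 between 60–65 and 10–30 µm for the 42 tested proteasome genes, with the 95% interval of the limma fit. Points in blue (20 genes) were lower and points in red (Psme4 and Psmf1) higher at an adjusted p under 0.05, and 37 of the 42 estimates lie below 0.

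Promoter windows of 300 bases (250 before and 50 after the start) from RefSeq on GRCm38.p6 were matched to 40 of the 48 genes. The windows below are those of the 3 genes with the largest falls and the 1 gene that rose among the called genes whose window starts within 100 bases of the start in the table, and they let the starts of genes that fell be read beside that of a gene that rose. Capitals mark CCAAT, TGACNNNGC (the core of the antioxidant response element, which Nfe2l1 and Nfe2l2 recognise), CCGGAA (the ETS core) and the palindromic site of nuclear respiratory factor 1, on either strand.
Psme2: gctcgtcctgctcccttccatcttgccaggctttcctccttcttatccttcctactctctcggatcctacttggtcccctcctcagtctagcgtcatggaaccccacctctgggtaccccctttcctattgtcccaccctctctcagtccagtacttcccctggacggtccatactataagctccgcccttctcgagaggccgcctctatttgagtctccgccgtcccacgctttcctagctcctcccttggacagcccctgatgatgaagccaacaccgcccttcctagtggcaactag
Psma3: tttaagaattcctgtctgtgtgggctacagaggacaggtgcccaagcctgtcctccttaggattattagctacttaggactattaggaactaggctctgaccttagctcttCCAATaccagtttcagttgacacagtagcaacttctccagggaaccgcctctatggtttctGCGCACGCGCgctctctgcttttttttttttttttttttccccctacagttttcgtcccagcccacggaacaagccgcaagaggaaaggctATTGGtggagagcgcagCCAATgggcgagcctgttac
Psmc6: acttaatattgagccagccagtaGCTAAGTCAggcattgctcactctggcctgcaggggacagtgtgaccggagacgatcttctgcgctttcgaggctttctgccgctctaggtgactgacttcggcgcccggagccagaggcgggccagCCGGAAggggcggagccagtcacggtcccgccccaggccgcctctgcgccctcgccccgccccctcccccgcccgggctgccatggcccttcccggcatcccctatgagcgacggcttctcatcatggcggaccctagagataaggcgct
Psme4: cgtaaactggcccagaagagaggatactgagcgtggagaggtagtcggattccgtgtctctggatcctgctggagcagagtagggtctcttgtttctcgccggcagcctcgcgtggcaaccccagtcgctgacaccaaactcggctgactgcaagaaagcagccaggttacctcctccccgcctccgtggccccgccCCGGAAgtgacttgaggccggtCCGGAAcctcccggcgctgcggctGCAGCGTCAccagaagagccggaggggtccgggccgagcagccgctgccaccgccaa
These 4 windows lie at chr14:55591052-55591351 (minus strand), chr12:70974373-70974672, chr14:45329574-45329873 and chr11:30771525-30771824 (plus strand). Psma3 holds CCAAT 3 times and 1 site of nuclear respiratory factor 1, Psmc6 holds 1 TGACNNNGC and 1 CCGGAA, Psme4 holds 1 TGACNNNGC and 2 CCGGAA, and none of the 4 motifs was found in the window of Psme2. Over the 40 genes, CCGGAA was in 47.5% of windows, beside 18.9% of 16010 windows of all genes. The site of nuclear respiratory factor 1 was in 17.5% beside 6.56%, CCAAT in 35% beside 38.8%, and TGACNNNGC in 15% beside 13.3%. Among the 15 windows of genes that fell, 8 held CCGGAA, 3 held TGACNNNGC, 3 held CCAAT and 3 held the site of nuclear respiratory factor 1. The windows of the proteasome genes had a median of 19 CpGs, and those of all genes 14. A match is a run of letters and not a bound site.

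In the alpha ring, whose subunits frame and gate the entrance of the core, 2 of 7 genes fell, beside 31.5% of all genes tested. Psma3 was measured at 10.3 and 7.64 RPKM (A and B) at 10–30 µm, 8.70 and 6.76 at 40–45 µm, 6.53 and 5.47 at 50–55 µm, and 5.48 and 5.39 RPKM at 60–65 µm. Its log2 fold change was −0.69 ± 0.20 (SE, adjusted p = 0.0143). Psma4 went from 15.4 and 11.9 RPKM to 8.91 and 9.49 RPKM, by −0.54 ± 0.17 (adjusted p = 0.0237). In both genes the groups did not overlap, and both calls were lost without A at 10–30 µm (adjusted p = 0.0675 and 0.110) or without either 60–65 µm library. Psma2, the subunit with the highest RPKM, stood at 73.7 and 53.6 RPKM at 10–30 µm and at 45.3 and 46.1 RPKM at 60–65 µm, and did not pass the test (−0.45 ± 0.18, adjusted p = 0.0526). Psma1 was level, at 14.8 and 12.6 RPKM and then 13.1 and 13.3 RPKM, with a 95% interval of −0.39 to 0.30.

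All 4 beta subunits without a proteolytic site fell, beside 31.5% of all genes tested. Psmb2 went from 40.8 and 35.1 RPKM at 10–30 µm through 27.7 and 32.2 at 40–45 µm and 26.1 and 24.8 at 50–55 µm to 22.6 and 22.6 RPKM at 60–65 µm, a log2 fold change of −0.73 ± 0.12 (adjusted p = 0.000955). Psmb4 went from 34.4 and 27.7 to 19.3 and 21.7 RPKM (−0.58 ± 0.15, adjusted p = 0.0092). Psmb3 went from 13.9 and 11.2 to 8.0 and 9.0 RPKM (−0.55 ± 0.14, adjusted p = 0.00971). Psmb1 went from 38.4 and 29.6 to 23.1 and 24 RPKM (−0.51 ± 0.16, adjusted p = 0.0219). In each of the 4 genes both 60–65 µm libraries lay below both 10–30 µm libraries. The call of Psmb1 was lost without A at 10–30 µm (adjusted p = 0.0890), and without A at 60–65 µm those of Psmb1, Psmb3 and Psmb4 were lost (adjusted p = 0.113, 0.0824 and 0.0775). Without B at 60–65 µm the call of Psmb1 was lost as well (adjusted p = 0.0730).

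The 3 constitutive proteases carry the chymotrypsin-like (Psmb5), caspase-like (Psmb6) and trypsin-like (Psmb7) sites. Psmb5 was at 30.1 and 30.0 RPKM at 10–30 µm, 26.9 and 29.2 at 40–45 µm, 19.2 and 23.4 at 50–55 µm, and 20.5 and 22.4 RPKM at 60–65 µm. It fell by 0.48 ± 0.12 on the log2 scale (adjusted p = 0.00741), most of it between 40–45 and 50–55 µm, and without A at 60–65 µm the adjusted p was 0.0703. Psmb7 fell from 49.3 and 38.7 RPKM through 34.3 and 33.6 and then 27.9 and 25.9 to 24.98 and 27.4 RPKM (−0.73 ± 0.15, adjusted p = 0.00268). Psmb6 stood at 26.1 and 19.2 RPKM and then at 18.1 and 18.97 RPKM, and did not pass (adjusted p = 0.184).

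Their exchange partners were almost absent. Psmb8, Psmb9 and Psmb10 replace Psmb5, Psmb6 and Psmb7 in the immunoproteasome, the form of immune cells and of cells under interferon. Psmb8 had 2 reads and Psmb9 5 reads in the 9 columns together, with 0 reads in 7 and in 5 columns. A count of 0 allows up to 3 reads, which is at most 0.011 RPKM for Psmb8 and 0.00825 RPKM for Psmb9 in any column. Psmb10 was measured at 0.364 and 0.327 RPKM at 10–30 µm, 0.131 and 0.214 at 40–45 µm, 0.127 and 0.0764 at 50–55 µm, and 0.0974 and 0.113 RPKM at 60–65 µm, from 13 to 66 reads per library. Psmb11, the protease of the thymus form and the neighbour of Psmb5 on chromosome 14, was between 0.0652 and 0.132 RPKM. With no filter on low values, Psmb10 fell by 1.09 ± 0.18 on the log2 scale (adjusted p = 0.00313), and Psmb11 was higher at 60–65 µm (0.42 ± 0.094, adjusted p = 0.00987). Both values are on the scale of log2(RPKM + 0.1) and understate the change of such low genes.

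Psma8 takes the place of Psma7 in the core of male germ cells at meiosis. It was at 0.541 and 0.453 RPKM in the 10–30 µm libraries, from 91 and 122 reads. It was then at 0.0904 and 0.161 RPKM at 40–45 µm, 0.0653 and 0.0650 at 50–55 µm, 0.0449 and 0.0588 at 60–65 µm and 0.0328 RPKM in GV oocytes, where 11 reads were left. With no filter its fall was −1.94 ± 0.17 on the scale of log2(RPKM + 0.1), which understates the change of so low a gene (adjusted p = 0.000232). Psma7 itself stood at 24.7 and 17.2 RPKM and then at 15.9 and 16.5 RPKM, with no call (adjusted p = 0.146), so that Psma7 was the higher of the pair in every column.

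In the cap, 3 of the 6 ATPases of the base fell, beside 31.5% of all genes tested. Psmc3 went from 21.2 and 16.9 RPKM at 10–30 µm to 14.6 and 14.5 at 40–45 µm, 12.6 and 11.8 at 50–55 µm and 11.5 and 11.7 RPKM at 60–65 µm (−0.70 ± 0.14, adjusted p = 0.00223). Psmc6 went from 23.9 and 22.6 to 14.7 and 15.6 RPKM (−0.61 ± 0.13, adjusted p = 0.00345). Psmc5 went from 27.2 and 25.5 to 21.3 and 19 RPKM (−0.38 ± 0.10, adjusted p = 0.0121), and its call was lost without B at 60–65 µm (adjusted p = 0.107). None of these overlapped between the classes. Psmc1, Psmc2 and Psmc4 had estimates of −0.22, −0.19 and −0.13 with intervals that included 0, and whether the 6 ATPases differed in their change was not tested. Psmc2 had the lowest RPKM of them, with a mean of 4.57 RPKM over the 8 libraries against 22.5 RPKM for Psmc5. The exon length implied by the table was 2.82 times the GENCODE length for Psmc2 and 1.06 times for Psmc5. Their reads over the 9 columns were 31005 and 41530, so that this gap depends on the length used.

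Of the other subunits of the base, the scaffolds Psmd1 and Psmd2 fell and the ubiquitin receptor Psmd4 did not pass. Psmd2 was at 30.4 and 33.8 RPKM in the youngest class, 25.3 and 28.9, then 22.8 and 22.4, and last 21.2 and 20.9 RPKM (−0.60 ± 0.091, adjusted p = 0.000606). Psmd1 went from 12.8 and 12.3 to 9.44 and 9.15 RPKM (−0.43 ± 0.093, adjusted p = 0.004). Psmd4 was at 27.5 and 23.1 and then at 23.5 and 22.5 RPKM, with a 95% interval of −0.41 to 0.16.

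In the lid, which holds the deubiquitinase Psmd14, 4 of 8 genes fell, beside 31.5% of all genes tested. The largest change of the cap was that of Psmd13, from 4.94 and 4.34 RPKM at 10–30 µm to 3.26 and 3.06 at 40–45 µm, 2.78 and 2.61 at 50–55 µm and 2.36 and 2.55 RPKM at 60–65 µm (−0.88 ± 0.12, adjusted p = 0.000364). It fell further to 1.79 RPKM in the GV column. Psmd6 (18.4 and 14.9 to 11.9 and 12.0 RPKM), Psmd8 (37.6 and 31.4 to 25.3 and 26.8 RPKM) and Psmd12 (12.4 and 12.3 to 10.1 and 10.0 RPKM) were called with adjusted p between 0.023 and 0.0271. These 3 calls were lost without A at 10–30 µm (adjusted p = 0.107, 0.108 and 0.0605) and without either 60–65 µm library. Psmd14 stood at 4.78 and 4.05 and then at 3.57 and 3.32 RPKM and did not pass (adjusted p = 0.095). Psmd11, the cap gene of lowest RPKM, lay between 1.45 and 1.79 RPKM in all 9 columns, with an implied exon length 2.15 times that of GENCODE. Psmd7 was the only cap gene with an estimate above 0 (0.14, interval −0.20 to 0.47).

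The genes around the particle moved in different directions. Psmg1 to Psmg4 are chaperones that build the alpha ring, with Psmg1 bound to Psmg2 and Psmg3 to Psmg4. Psmg2 was at 3.28 and 2.94 RPKM at 10–30 µm, 1.69 and 1.76 at 40–45 µm, 1.31 and 1.118 at 50–55 µm, 0.817 and 0.893 at 60–65 µm, and 0.586 RPKM in GV oocytes. Its fall by 1.74 ± 0.13 on the log2 scale was the largest of the 42 genes (adjusted p = 1.49e-05), and every class lay below the one before without overlap. Its partner Psmg1 was at 6.11 and 5.63 RPKM in the youngest class and 6.92 and 6.16 RPKM at 60–65 µm (0.16, interval −0.12 to 0.44). Psmg3 was at 5.53 and 4.53 and then at 4.56 and 5.11 RPKM, and Psmg4 at 10.0 and 8.39 and then at 6.85 and 7.88 RPKM, and neither passed the test. Of the chaperones of the 19S base, Psmd10 went from 12.5 and 10.3 to 8.33 and 7.75 RPKM (−0.49 ± 0.15, adjusted p = 0.019, with 0.0805 without A at 10–30 µm and 0.0633 and 0.105 without A and B at 60–65 µm), whereas Psmd5 and Psmd9 did not pass, at 11.1 and 9.01 and then 10.8 and 11.4 RPKM for Psmd5 and 3.67 and 3.74 and then 3.72 and 3.25 RPKM for Psmd9.

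Among activators that can replace the 19S cap, Psme1 and Psme2 form a mixed ring, Psme3 forms a ring of its own in the nucleus and Psme4 binds as a single large chain. Psme2 fell from 3.84 and 3.09 RPKM through 3.2 and 2.95 and then 2.43 and 2.11 to 1.89 and 2.19 RPKM (−0.73 ± 0.15, adjusted p = 0.00367), and stood at 1.44 RPKM in GV oocytes. Its partner Psme1 was at most 0.0924 RPKM, with 98 reads in 9 columns, so that Psme2 was the higher of the pair in every column. A retrocopy of Psme2 is annotated, and reads that match both could have been placed in either. Psme3 was at 16.1 and 21.8 RPKM and then at 18.0 and 18.6 RPKM, with overlap and an interval of −0.39 to 0.34.

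Psme4 and the inhibitor Psmf1, which can block the ends of the core, were the 2 genes that rose. Psme4 was at 6.70 and 7.37 RPKM at 10–30 µm, 8.25 and 7.80 at 40–45 µm, 10.8 and 10.1 at 50–55 µm, 11.2 and 10.99 at 60–65 µm, and 13.2 RPKM in GV oocytes. Its log2 fold change was 0.66 ± 0.094 (adjusted p = 0.000435). Psmf1 was at 3.19 and 3.85 RPKM, 3.46 and 4.08, 4.93 and 4.95, and 6.65 and 6.09 RPKM in the 4 classes, with 7.78 RPKM in the GV column (0.85 ± 0.11, adjusted p = 0.000214). Both genes stayed called in each of the 8 fits without 1 library, with log2 fold changes of 0.62 to 0.68 and of 0.74 to 0.92.

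**Figure D4:**
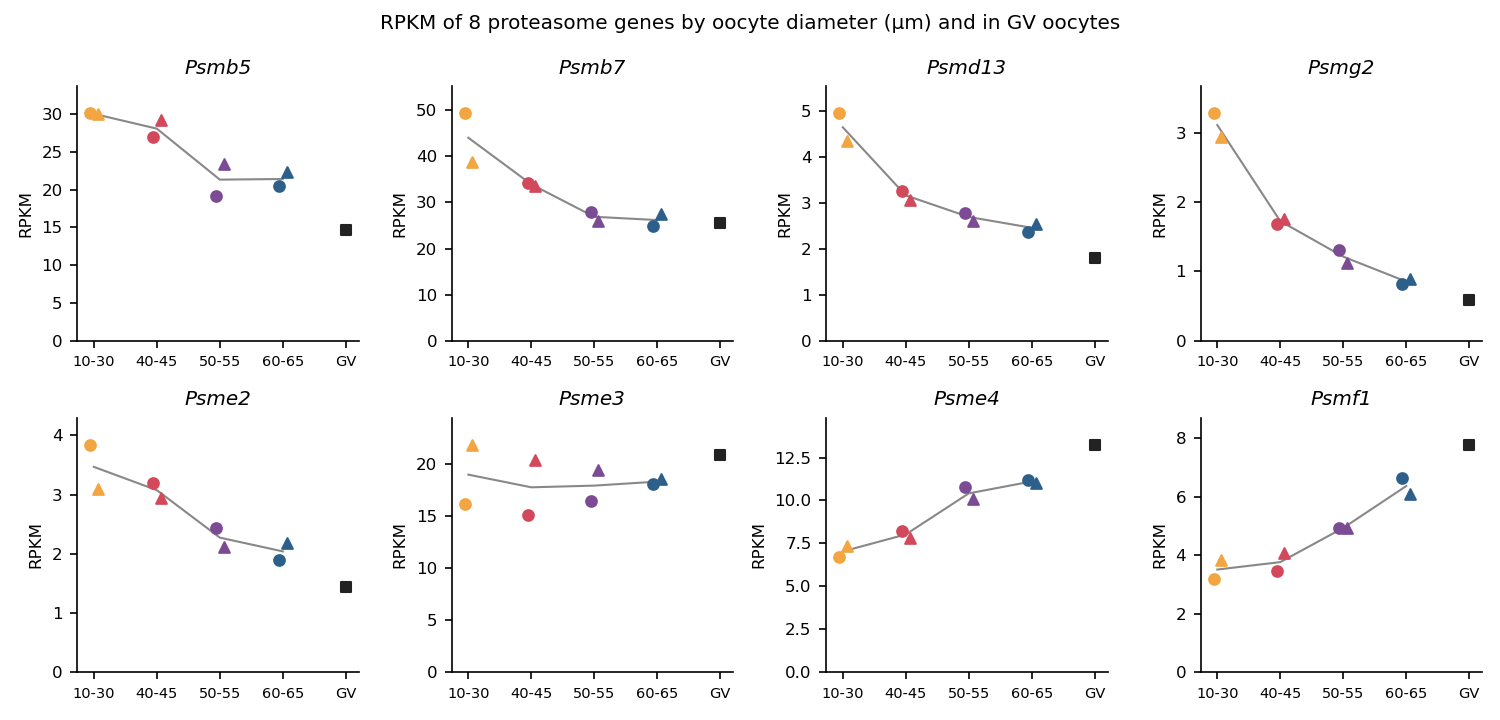
RPKM of 8 proteasome genes by oocyte diameter, with circles for A, triangles for B, a line through the class means and a square for the GV column; each axis starts at 0. The class means of Psmg2 and Psmd13 went down from class to class, Psme4 and Psmf1 went up to 13.2 and 7.78 RPKM in GV oocytes, and the libraries of Psme3 overlapped.

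Between neighbouring classes the median log2 fold change of the 42 genes was −0.10, −0.20 and −0.055, in order of size. From 10–30 to 40–45 µm, 2 of 42 genes fell, Psmg2 (−0.75 ± 0.13, adjusted p = 0.00525) and Psmd13 (−0.47 ± 0.12, adjusted p = 0.0277), and 0 rose, beside 9.84% and 13.2% of all genes. At an unadjusted p under 0.05 in limma, 1 gene was higher, Psme4, and 3 were lower, and edgeR on the recovered reads also called 0 as higher. The number that fell was 1 without either 40–45 µm library, without either 60–65 µm library or without A at 10–30 µm, and 9 without B at 10–30 µm. The median over the 42 genes, −0.10, was 0.0025 without A at 10–30 µm. From 40–45 to 50–55 µm, 1 gene fell, Psmg2 (−0.50 ± 0.13, adjusted p = 0.0455), and 0 rose, beside 3.1% and 5.65% of all genes. Both 50–55 µm libraries lay below both 40–45 µm libraries for 26 of the 42 genes and above them for 2. The shares of all genes were 29.5% and 30.2%. In this step 14 of 14 core estimates and 15 of 17 cap estimates lay below 0. At an unadjusted p under 0.05, 7 were lower and 2 higher, edgeR called 0 in either direction, and the count that fell was 7 without A and 6 without B at 10–30 µm and 0 without any other single library, whereas 1 rose without A and 2 rose without B at 10–30 µm. From 50–55 to 60–65 µm, limma and edgeR called 0 of the 42 genes, with 1 higher and 1 lower at an unadjusted p under 0.05 in both, and the share of all genes called was 0% in each direction. The 4 class means of the scaled log2 values, taken in order of size without a test, went down in every step for 25 of 42 genes and up in every step for 3 (Psmd5, Psme4 and Psmf1), beside 30.3% and 30.3% of all genes. In RPKM as deposited, which are not scaled, the order of small changes can differ, as for Psmd5, whose mean was 10.1 RPKM at 10–30 µm and 9.79 RPKM at 40–45 µm.

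In GV oocytes, which have 1 column and were not tested, 11 of the 14 core genes were below both 60–65 µm libraries and 0 above both, with a median ratio to the mean of the 60–65 µm class of 0.907. For the cap, 6 of 17 were below and 5 above, and the median ratio was 0.983. Over all genes tested, 46.2% were below and 35.1% above, with a median of 0.975. Among the tested genes, the lowest ratios were those of Psmb5 (14.7 RPKM, 0.685), Psmg2 (0.685), Psme2 (0.703) and Psmd13 (0.730), and the highest that of Psmf1 (1.22).

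Genes that act with the proteasome were read from 3 lists with 27 tested members, and over growth 7 fell and 6 rose, shares no higher than the 31.5% and 31.8% of all genes. Among proteins bound to the proteasome, its maturation factor and ubiquitin shuttles, 4 of 15 fell and 4 rose. Pomp, the maturation factor of the core, went from 29.3 and 24.3 to 13.3 and 14.2 RPKM (−0.95 ± 0.13, adjusted p = 0.00034). Shfm1, a small lid subunit named outside the Psm series, went from 63.0 and 43.5 to 31.5 and 32.1 RPKM (−0.71 ± 0.19, adjusted p = 0.0109).

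Ubiquitin shuttles were among the genes that rose. Ubqln1 went from 13.3 and 15.9 to 30.5 and 26.3 RPKM (0.97 ± 0.11, adjusted p = 0.000109). Ubqln2 went from 0.737 and 1.404 to 2.41 and 2.61 RPKM (1.22 ± 0.25, adjusted p = 0.00301). Ddi2, the protease that activates the transcription factor Nfe2l1, went from 7.26 and 9.86 to 14.6 and 13.4 RPKM (0.72 ± 0.12, adjusted p = 0.00116).

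Of the genes that control proteasome transcription, 2 of 3 rose, beside 31.8% of all genes tested. Nfe2l2 went from 0.496 and 0.610 to 1.30 and 1.16 RPKM (1.04 ± 0.12, adjusted p = 0.00015), and the log2 fold change of Nfe2l1 was 0.33 ± 0.13 (adjusted p = 0.0469). Nfe2l1 was at 10.5 and 11.5 RPKM at 10–30 µm and at 15.8 (A) and 12.1 (B) RPKM at 60–65 µm, so that most of its change lay in 1 library. Among 9 genes of ubiquitin, its activating enzymes and the p97 segregase, 3 fell and 0 rose, beside 31.5% and 31.8% of all genes tested. Rps27a, which encodes ubiquitin joined to a ribosomal protein, went from 19.3 and 17.1 to 7.997 and 9.27 RPKM and fell by 1.06 ± 0.12 on the log2 scale (adjusted p = 0.000124), and Ufd1l, a partner of p97, fell by 0.64 ± 0.12 (adjusted p = 0.00216). The polyubiquitin gene Ubb, with 312.5 and 382.5 RPKM at 10–30 µm and 388.1 and 364.9 RPKM at 60–65 µm, was not among the calls.

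CpG methylation within 1000 bases of the start was low in the 3 size classes measured, which do not include 10–30 µm. In the PBAT library at 60–65 µm the median over 47 genes with at least 5 measured positions was 3.48%, beside 3.86% over all genes, and 34 of the 47 were under 5%, beside 64.5% of all genes and 72.9% of those with tested RNA. The 4 genes printed above had 3.70% (Psme2, 738 calls), 2.93% (Psma3, 979 calls), 2.43% (Psmc6, 367 calls) and 1.98% (Psme4, 1243 calls). Those of Psmd13 and Psmg2 had 5.31% (434 calls) and 2.70% (1117 calls). The genes that fell and are listed here, and Psme4, which rose, had starts with little methylation at 60–65 µm. Psmf1, the other gene that rose, is not among them. Only Psma6 (55.4%, from 33 calls at 5 positions) and Psmb11 (50.8%, from 790 calls at 73 positions) were above 25%, and with positions of at least 1 read the highest core value, that of Psma6 included, was 21.3%. In RRBS the median was 0.508 and 0.311% at 40–45 µm, 0.610 and 0.315% at 50–55 µm and 0.540 and 0.525% at 60–65 µm (A and B).

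From start to end of the gene, the median in PBAT was 22.4% over 47 genes, and this value includes the low start of each gene. For the 41 genes with tested RNA it was 25.5%, beside 30.2% over all genes with tested RNA, and 51.2% and 60.1% were at 25% or more. Without the positions within 1000 bases of the start the median over 47 genes was 45.6%, a reading added after the values were seen. For those with tested RNA this reading was 49.6%, beside 47.7% over all genes with tested RNA. For the 6 genes under the RNA filter the median was 9.79%, with a range of 0.545% (Psmb10, 283 calls) to 20.04% (Psmb11, 83 calls), beside 8.93% over all genes under the filter. The share of genes at 25% or more in this reading was 34 of 41 and 0 of 6, beside 81.8% and 19.1% of all genes with and without tested RNA. From start to end of the gene it was 21 of 41 and 1 of 6 (at 50.15%), beside 60.1% and 16.2%.

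The cap genes had a median of 59.0% beyond the start region, with a range of 30.4% (Psmd8) to 65.9% (Psmd2), and the core genes one of 46.5%, with a range of 3.01% (Psmb5) to 72.5% (Psma4). With positions of at least 1 read the medians were 57.8% and 43.1%. Psmd13 was at 62.9% (436 calls), Psmg2 at 62.9% (392 calls), Psme2 at 65.5% (296 calls) and Psme4 at 44.3% (489 calls). The low values among genes with tested RNA were those of Psmb5 (131 calls at 16 positions, at 20.5 and 22.4 RPKM in oocytes of the same size), Psma6 (12.5%, 983 calls), Psmf1 (13.7%, 711 calls), Psmg1 (16.1%, 215 calls) and Psmg3 (18.0%, 204 calls). For Psma6 and Psmf1 these are nearly values of the whole gene, since leaving out the 1000 bases took 0 of 983 and 12 of 723 calls, and the RefSeq start window of Psmf1 lies 2876 bases from the start in the table. There is 1 PBAT library, and calls give counting error only.

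**Figure D5:**
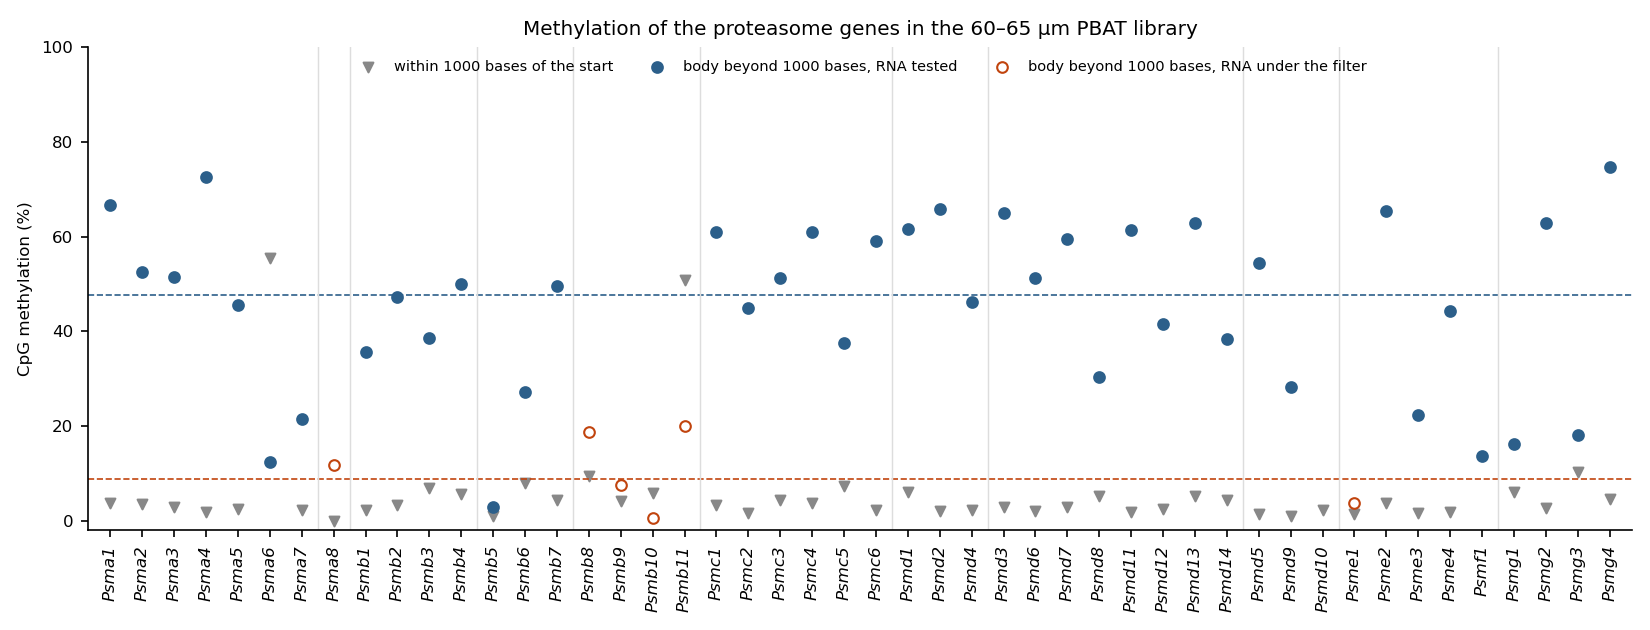
CpG methylation of the proteasome genes in the 60–65 µm PBAT library, within 1000 bases of the start (grey) and in the rest of the gene (blue where the RNA was tested, open red where it was under the filter). Dashed lines are the medians of all genes with tested RNA (47.7%) and of all other genes (8.93%); the 6 genes under the filter reach at most 20.04% in the rest of the gene, as do Psmb5, Psma6, Psmf1, Psmg1 and Psmg3.

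RRBS followed the bodies from 40–45 µm on. The median from start to end was 0.813 and 0.423% at 40–45 µm, 0.835 and 1.83% at 50–55 µm, and 1.04 and 1.61% at 60–65 µm (A and B), and RRBS positions lie mostly in CpG-rich starts. Of 30 proteasome genes measured in all 4 libraries, 12 (40%) were higher in both 60–65 µm libraries than in both 40–45 µm libraries, beside 68.1% of 7449 genes with tested RNA. The 3 of these 30 with the widest gap between the classes, chosen after their values were seen, belong to the cap. Psmd12 was at 0.959 and 0.829%, then 11.1 and 13.1%, then 22.9 and 23.4%. Psmd3 was at 1.85 and 0.398%, then 9.35 and 7.67%, then 22.9 and 18.96%. Psmd4 was at 1.03 and 0.285%, then 4.70 and 0.615%, then 27.1 and 13.9%. The level of Psmd12 RNA fell by 0.29 ± 0.092 on the log2 scale over growth, and Psmd3 and Psmd4 did not pass the test. These differences in methylation were not tested.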

How the data were processed

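RNA-seq, RRBS and PBAT files of 16 samples were used. The authors sequenced strand-specific total RNA libraries, trimmed reads with Trim Galore (0.2.8) and mapped them with TopHat2 (2.0.9) to GRCm38, keeping 1 location per read, so that reads shared by a gene and its copies may be misplaced. They deposited 1 RPKM value per gene and library. The methods name SeqMonk and Cufflinks for RNA-seq. Which of them made the table, and whether counting used strand, is not given in the sources used here. For methylation the authors used Trim Galore (0.3.5) and Bismark (0.14.0 for RRBS, 0.10.0 for PBAT), and deposited the percent methylation and the counts of methylated and unmethylated calls at each cytosine. RRBS calls can include duplicates, whereas duplicates were removed from PBAT.

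RPKM values were scaled by a trimmed mean of ratios (30% by ratio, 5% by level, factors of 0.951 to 1.06), and genes with at least 0.5 RPKM in 2 of 8 libraries were kept. limma (3.58.1, R 4.3.3) with a trend in the variance was fitted to log2(RPKM + 0.1) with a mean for each size class, which leaves 4 residual degrees of freedom. P-values were adjusted by Benjamini and Hochberg over 10518 genes, with a threshold of 0.05. Errors after ± are standard errors of the fit. Whole reads came back from the RPKM steps for 100% of 20278 genes above 0 (within 0.02 of a whole read, up to 1 factor for all libraries), and edgeR (4.0.16) was run on them as an alternative added after the data were seen, calling 21 proteasome genes lower and 2 higher over growth. The fit was tested on simulated data.

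Methylation is the mean over positions with at least 5 reads, for genes with 10 such positions from start to end or 5 within 1000 bases of the start. Floors cover counting error only. The genes, lists and motifs were chosen with earlier results of these data known. Values are given per library for called genes, the highest and lowest gene of each group, exchange partners, activators and chaperones, and for the related genes with the 10 largest called changes, of which some are not reported here. Alternatives were another pseudocount, no filter, no scaling, the replicate letter as a block, each library left out, and coverage of 1 or 10 reads.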

Additional observations from a re-analysis of the deposited data

How the results depend on the processing

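Over the whole of growth the 2 genes that rose were called under each alternative run, and the count that fell was 20 to 25 under the alternatives that kept all libraries. Without 1 library it was 10 to 29. From 10–30 to 40–45 µm the count that fell was 1 to 9 without 1 library, and 1 gene rose with no filter. From 40–45 to 50–55 µm the count that fell was 0 with a pseudocount of 1, with no filter and in edgeR, and 0 to 7 without 1 library, while the count that rose was 1 with no scaling and 0 to 2 without 1 library.

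The letters A and B were not taken to pair the libraries. The deviations of same-lettered libraries correlated at 0.59 to 0.67 between the 3 smaller classes, but at −0.23 to 0.11 between these and 60–65 µm. With the letter as a replicate block, 3 genes fell and 2 rose from 40–45 to 50–55 µm, and 24 fell over growth. In edgeR with the replicate block these counts were 4, 2 and 25, and 1 gene rose from 10–30 to 40–45 µm.

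For the mean of both libraries, the median RRBS level from start to end was 0.618, 1.33 and 1.33% in the 3 classes, and 0.972, 8.89 and 1.97% with a coverage of 1 read, when other genes entered the median. At the start it was 0.533% at 60–65 µm, with 0.442% at 1 read and 0.515% at 10 reads. In PBAT the median from start to end (22.4%) was 35.2% at 1 read, 18.98% at 10 reads and 45.6% beyond 1000 bases of the start, and that at the start (3.48%) was 2.28% at 10 reads. The cause of these differences was not tested. With 2 libraries per class and 4 residual degrees of freedom, a gene that was not called may still have changed.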
